A study of Homo sapiens with 2 samples.

Results

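The E2F transcription factors and the RB family of pocket proteins were examined in PC3 cells depleted of SUB1. The set held 10 genes, E2F1, E2F2, E2F3, E2F4, E2F5, E2F6, E2F8, RB1, RBL1 and RBL2, and every array probe annotated to one of them by gene name was taken, whatever its value. These were 18 of the 41000 gene probes on the array, and 17 of them were among the 25673 probes whose signal on each array was well above background in Cy3, in Cy5 or in both.

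E2F proteins bind DNA upstream of genes needed for DNA replication and entry into S phase. E2F1, E2F2 and E2F3 are activators, whereas E2F4 and E2F5 mostly repress transcription together with a pocket protein. RB1 binds mainly the activators, and its relatives RBL1 (p107) and RBL2 (p130) bind E2F4 and E2F5. Cyclin-dependent kinases phosphorylate the pocket proteins and release the E2Fs. E2F6 and E2F8 repress without a pocket protein. SUB1 (PC4) is a single-stranded DNA-binding transcriptional coactivator, and the study examined its role in aggressive prostate cancer.

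PC3 is an established cell line from a bone metastasis of prostate cancer. The cells were cultured in medium with 10% FBS and transfected with SUB1 siRNA 1, SUB1 siRNA 2 or a non-targeting siRNA (Non-T), and a second transfection followed the first by 24 h. RNA was taken 72 h after the first transfection. On 2 arrays of 1 slide the knockdown RNA was labelled with Cy5 and the Non-T RNA with Cy3, so 1 array stood for each siRNA and the dyes were not swapped. Because neither siRNA was replicated, the spread between cultures given the same siRNA is unknown, and whether both arrays held the same Non-T extract is not stated. In RNA from a whole culture, fewer cells in a cell-cycle phase and less RNA per cell cannot be told apart.

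Values are log2 ratios of the knockdown over Non-T after normalization of each array, so that -1 is a 2-fold lower signal in the knockdown. The 4 SUB1 probes had ratios between -3.75 and -1.81 with siRNA 1 and between -3.50 and -1.57 with siRNA 2. The epithelial markers KRT8, KRT18, EPCAM and CDH1 were above background in the Non-T channel of both arrays, as was VIM. TMPRSS2, low or absent in PC3, was not, nor were PTPRC, COL3A1 and SYP of leukocytes, fibroblasts and neuroendocrine cells. Dim signals above background were seen for PECAM1, COL1A1, CHGA and CD3E, whereas KLK3, low or absent in PC3, was bright at 1 of 3 probes, with a log2 signal averaged over channels of 14.56 on the brighter array, and in Non-T not above background at the others. Among probes spotted 10 times, the spots of 1 probe had a median SD of 0.078 with siRNA 1 and 0.074 with siRNA 2, which is technical error only.

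E2F-responsive promoters carry the core TTCCCGC or a variant of it, spelled TTCGCGC, spelled TTGCCGC or spelled TTGGCGC. The core was sought on both strands of RefSeq promoters (GRCh38.p14) from 250 bases before to 50 bases after the start. No promoter entry was found for E2F8, and E2F5 is not reported here. The other 8 members had 10 promoters. A core was found in 5 of them (50%), against 13% of all 35116 promoters and 62.3% of 53 promoters of genes in the G1/S target list described further on. These were the promoters of E2F1, E2F2, E2F6 and RBL1 and 1 of 2 for E2F3. None was found in the promoters of E2F4 and RBL2 or in the RB1 entry, which lies at an alternative start. In E2F1, E2F2, E2F3 and RBL1 the core TTGGCGC followed TTTCGCG on the strand of the gene, just upstream of the start. The windows of that pair are shown 5′ to 3′ on the strand of the gene because they are the shared sequence of the activators and of RBL1, with both motifs in capitals.
E2F1 (chr20:33686396-33686424, minus strand): tcTTTCGCGgcaaaaaggatTTGGCGCgt
E2F2 (chr1:23531266-23531292, minus strand): aaTTTCGCGgcacgacgtTTGGCGCta
E2F3 (chr6:20401838-20401863, plus strand): agTTTCGCGggaggaccTTGGCGCgt
RBL1 (chr20:37096004-37096025, minus strand): atTTTCGCGcgctTTGGCGCag
TTTCGCG began 37 bases before the start in E2F1, 57 in E2F2, 39 in E2F3 and 26 in RBL1. The motifs began 18, 16, 15 and 11 bases apart in these promoters. A pair of TTTCGCG followed by TTGGCGC on the same strand, starting at most 30 bases apart, was found in 6 of the 35116 promoters (0.0171%). Of these, 4 were the promoters shown. The pair was defined after the sequences had been read, so its rarity is a description. In E2F1 the first motif overlaps the core TTGCCGC on the opposite strand, and in RBL1 it overlaps TTCGCGC. The motif TTTGAA, called CHR, was in 20% of member promoters and 15.2% of all, and CCAAT in 30% and 34.6%. With siRNA 1 the brightest probes of E2F1, E2F2, E2F3 and RBL1 all had ratios below 0, as had 45.9% of all genes. With siRNA 2 that of E2F3 was above 0, and 46.4% of all genes were below 0. With each array centred on its median instead, E2F1 (0.01) and E2F3 (0.08) were above 0 with siRNA 1, and E2F2 and RBL1 stayed below.

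The plot of signals shows the size of the changes against the range of signals.

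**Figure D1:**
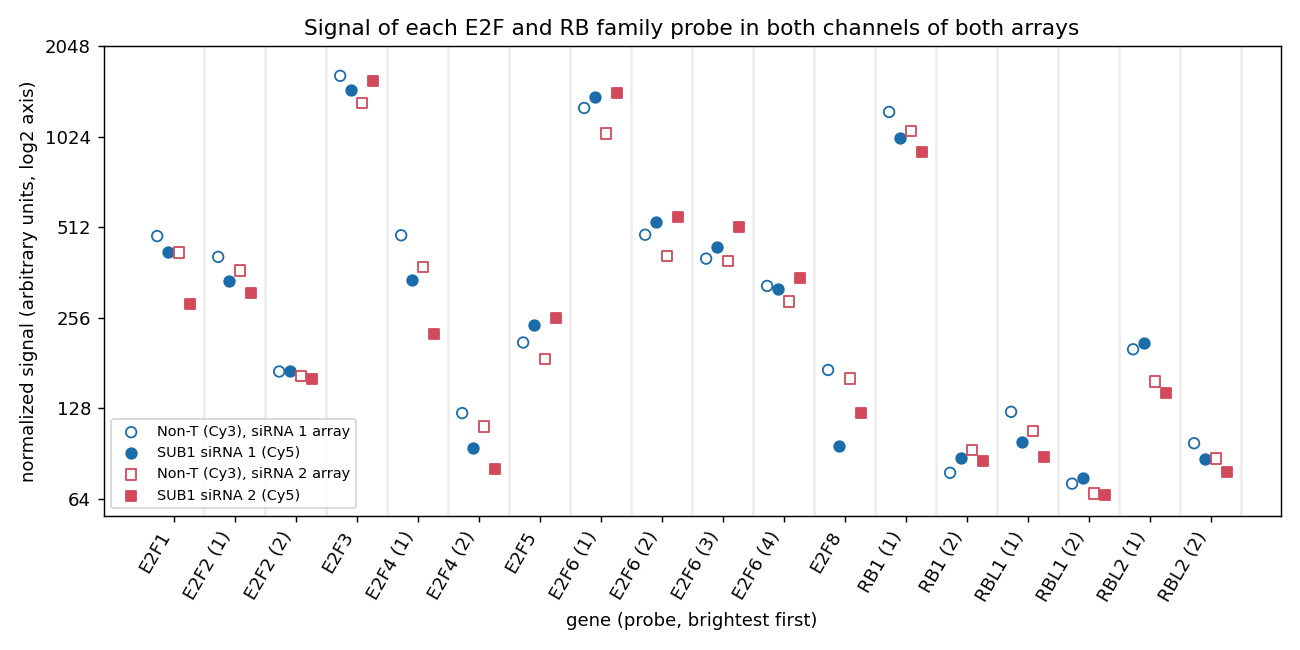
Normalized signal (arbitrary units, log2 axis) of each of the 18 probes, numbered within a gene from the brightest, with Non-T as open symbols and SUB1 siRNA as filled symbols, circles for the siRNA 1 array and squares for the siRNA 2 array; each symbol is 1 array. The filled symbols of E2F4 and E2F8 lie below the open ones on both arrays, those of E2F5 lie above, and no symbol pair is 2-fold apart.

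No member probe was 2-fold changed with either siRNA, the cutoff used in the study's methods. Over all 25673 probes, 0.557% were at least 2-fold lower and 0.195% at least 2-fold higher with siRNA 1. With siRNA 2 these shares were 0.923% and 0.526%. With each array centred on its median instead, 143 lower and 50 higher probes became 71 lower and 169 higher with siRNA 1, and 237 and 135 became 115 and 310 with siRNA 2. That centring moved the median ratio of all probes to 0.108 with siRNA 1, against 0.014, and to 0.104 with siRNA 2, against 0.015. The members moved by unequal amounts under it, and the values are given with those that moved most.

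At 1.5-fold, 1 member probe was lower with siRNA 1 (E2F8) and 1 with siRNA 2 (the brighter E2F4 probe), and none was higher. Of all probes, 2.92% were lower and 2.21% higher by this measure with siRNA 1, and 3.94% and 3.19% with siRNA 2. With 1 value per gene, its brightest probe, 0.609% of 19219 genes were at least 2-fold lower and 0.208% higher with siRNA 1, and 1.07% and 0.614% with siRNA 2. The 1.5-fold shares of genes were 3.02% and 2.43% with siRNA 1 and 4.22% and 3.51% with siRNA 2. None of the 10 member genes was past 2-fold, and 1 was past 1.5-fold with each siRNA.

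The ratios of both arrays were tested together against 0 with limma over all 25673 probes, taking the siRNAs as 2 independent knockdowns. The spread of Non-T cultures does not enter this test, and any dye bias does. Benjamini-Hochberg adjusted p was under 0.05 for 0.0117% of probes (3 probes, all for SUB1) and for none of the 17 member probes, whose adjusted p ran from 0.112 to 0.967. At unadjusted p under 0.05, 7 of 17 member probes were lower and 1 was higher. Over all probes these shares were 10.5% lower and 10.7% higher. The median ratio of the member probes was -0.16 with siRNA 1 and -0.13 with siRNA 2. It was 0.014 and 0.015 over all probes. With median centring the member median was 0.078 with siRNA 1, turning its sign, and -0.045 with siRNA 2.

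**Figure D2:**
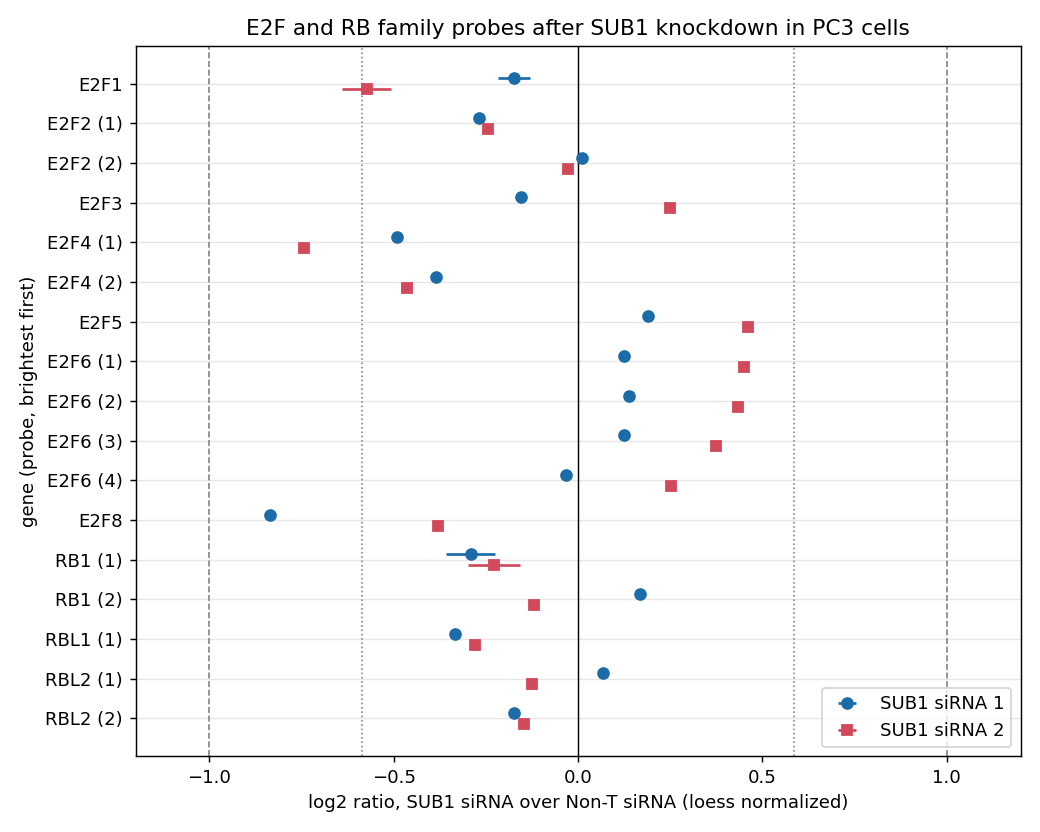
Log2 ratio (SUB1 siRNA over Non-T) of the 17 probes above background, with siRNA 1 as circles and siRNA 2 as squares; each symbol is 1 array, and the bars on E2F1 and the first RB1 probe are the SD over their repeated spots, 9 and 10 on each array. Dashed lines mark 2-fold and dotted lines 1.5-fold; E2F8 with siRNA 1 (-0.83) and the brighter E2F4 probe with siRNA 2 (-0.74) are the points past the dotted line, and no point is past a dashed one.

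Among the activators, E2F1 drives replication genes and, when RB1 is lost, also apoptosis genes. Its probe (A_23_P80032, chr20:31727650-31727709 in hg18, minus strand, the build in the array header) read 478 in Non-T and 424 with siRNA 1, and 422 and 283 with siRNA 2. The ratio was -0.17 (SD 0.044 over 9 spots) with siRNA 1 and -0.57 (SD 0.066 over 9 spots) with siRNA 2. The knockdown channel was the lower on both arrays, and the ratios differed by more than the spot SD. With siRNA 2, 4.17% of all probes had a lower ratio, and with siRNA 1 21.6% did. The mean of -0.37 (SE 0.132) had an adjusted p of 0.216. With median centring the siRNA 1 ratio was 0.01 and the siRNA 2 ratio -0.41.

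E2F2, an activator with roles in blood cell proliferation, had 2 probes that differed. The brighter (A_23_P408955, chr1:23705520-23705579) read 408 in Non-T and 339 with siRNA 1, and 368 and 310 with siRNA 2. Its ratios were -0.27 and -0.24 (adjusted p 0.225). The dimmer (A_23_P125990, chr1:23708962-23709021) read 170 and 171, then 164 and 161, with ratios of 0.011 and -0.028 (adjusted p 0.967). The first probe was thus lower on both arrays by similar amounts, which came to -0.10 and -0.08 with median centring, while the second lay within the technical spread of 0.097 and 0.088 SD for spots of its signal.

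E2F3, also an activator, had a ratio of -0.16 with siRNA 1 and 0.25 with siRNA 2. Its signal was 1629 in Non-T and 1463 with siRNA 1, and 1321 and 1570 with siRNA 2 (A_23_P385034, chr6:20601824-20601883). The siRNAs therefore lay on opposite sides of 0. The adjusted p was 0.865. With median centring both ratios were above 0, at 0.08 and 0.49.

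Of the repressor E2Fs, E2F4 had the lowest adjusted p of the set. E2F4 is the most abundant partner of RBL1 and RBL2 in resting cells. Its brighter probe (A_24_P318457, chr16:65790187-65790246, plus strand) read 481 in Non-T and 342 with siRNA 1, and 377 and 225 with siRNA 2. The ratios were -0.49 and -0.74, and 4.33% and 2.15% of all probes had a lower ratio on these arrays. The mean was -0.62 (SE 0.11), with an adjusted p of 0.112. The dimmer probe (A_23_P152218) lies upstream of it, and its hg18 coordinates span 280 bases rather than 60 (chr16:65789011-65789290). It read 124 and 94.6 with siRNA 1, and 111 and 80.8 with siRNA 2, for ratios of -0.39 and -0.46 (adjusted p 0.131). Both probes were lower on both arrays, and under every processing tried their ratios stayed between -0.82 and -0.32 with siRNA 1 and between -1.17 and -0.37 with siRNA 2.

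E2F5, the other pocket-dependent repressor, differed in sign from E2F4. Its single probe read 212 in Non-T and 242 with siRNA 1, and 187 and 257 with siRNA 2. The ratios were 0.19 and 0.46, and 77.9% and 94.0% of all probes had a lower ratio. The knockdown channel was the higher on both arrays, but the mean of 0.33 (SE 0.112) did not pass the test (adjusted p 0.211). The ratios remained above 0 in all alternatives, at 0.19 to 0.43 with siRNA 1 and 0.43 to 0.82 with siRNA 2.

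E2F6 represses transcription as part of a Polycomb complex and lacks the domain that binds pocket proteins. Its 4 probes lie within 997 bases (chr2:11502975-11503971, minus strand). The brightest (A_23_P170774) read 1274 and 1389 with siRNA 1, and 1046 and 1429 with siRNA 2, for ratios of 0.12 and 0.45 (adjusted p 0.265). The next were A_32_P27271 at 0.14 and 0.43, and A_32_P230720 at 0.12 and 0.37. The dimmest, A_32_P12610, stood at -0.03 and 0.25. All 4 probes had a higher ratio on the siRNA 2 array than on the siRNA 1 array, and 3 of 4 were above 0 on both. Their adjusted p ran from 0.256 to 0.615. With median centring all 4 were above 0 on both arrays, between 0.12 and 0.35 with siRNA 1 and between 0.41 and 0.69 with siRNA 2.

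E2F8 is an atypical E2F that represses E2F1 target genes in late S phase and binds DNA without a dimer partner. It had the lowest ratio of any member with siRNA 1. The probe (A_23_P35871, chr11:19202251-19202310, minus strand) read 172 in Non-T and 96.3 with siRNA 1, and 161 and 124 with siRNA 2. The ratios were -0.83 and -0.38, and 1.00% and 9.59% of all probes had a lower ratio. The mean of -0.61 (SE 0.141) had an adjusted p of 0.134. For spots of this brightness the technical SD was 0.104 and 0.086, so both ratios were beyond it, as was the gap between them. The size depended on the background treatment. It was -1.22 and -0.53 with a normexp offset of 10, and -1.74 and -0.44 with the scanner software's processed signals, so the siRNA 1 value was past 2-fold in both of these.

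Among the pocket proteins, RB1 is the retinoblastoma tumor suppressor. Its brighter probe (A_23_P204850, chr13:47953846-47953905, plus strand, 10 spots) read 1236 and 1010 with siRNA 1, and 1068 and 912 with siRNA 2. The ratios were -0.29 (SD 0.066) and -0.23 (SD 0.070), beyond the spot SD on both arrays, with an adjusted p of 0.225. Median centring brought them to -0.07 and 0.00. The other RB1 probe (A_24_P102636), whose coordinates span 2747 bases (chr13:47832236-47834982), was not well above background in Non-T on either array. It read 78.2 in Non-T and 87.8 with siRNA 1, and 93.2 and 85.9 with siRNA 2, so it gives no fold for RB1.

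RBL1 (p107) is itself a target of E2F and binds E2F4 during S phase. The probe for transcript variant 1 (A_23_P28733, chr20:35060611-35060670, minus strand) read 125 and 98.9 with siRNA 1, and 108 and 88.6 with siRNA 2. The ratios were -0.33 and -0.28 (adjusted p 0.183), below 0 with both siRNAs and in every alternative. The probe for variant 2 (A_24_P276102, chr20:35069243-35069302) was not well above background in any channel and is the 1 of 18 not tested.

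RBL2 (p130), the pocket protein of resting cells, had a ratio near 0 at its brighter probe. A_24_P416159 (chr16:52082347-52082406) read 201 in Non-T and 211 with siRNA 1, and 157 and 144 with siRNA 2. Its ratios were 0.07 and -0.13 (adjusted p 0.895). A_23_P26413 (chr16:52081616-52081675) read 98.1 and 87.0, then 87.4 and 78.9, with ratios of -0.17 and -0.15 (adjusted p 0.383). The first probe lay on both sides of 0, and the second was lower on both arrays by less than 2 technical SD of 0.1 and 0.096. With the scanner software's processed signals the second stood at -0.45 and -0.90.

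The plot of alternatives shows which of these values moved with the processing.

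**Figure D3:**
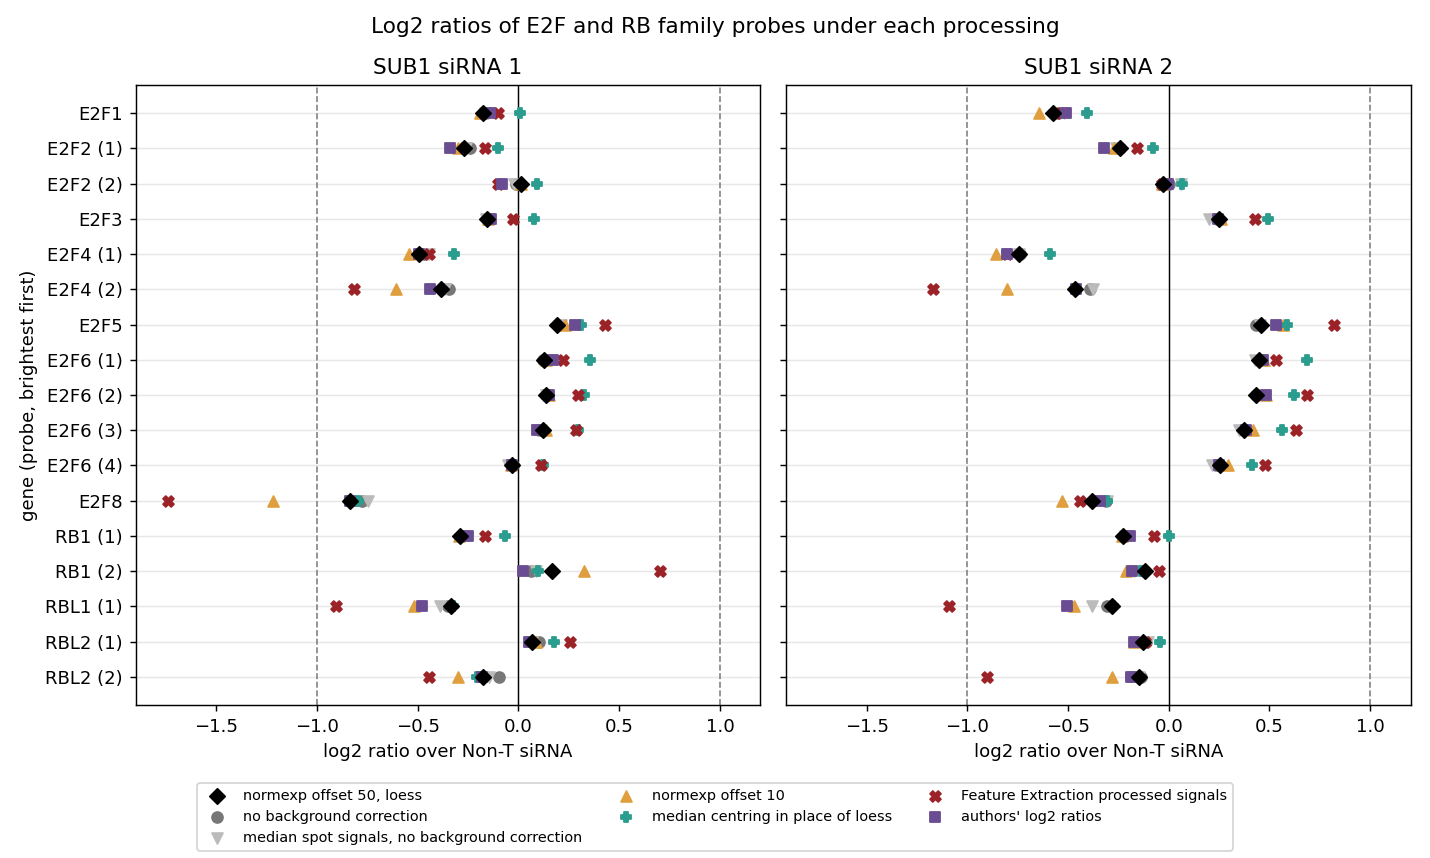
Log2 ratio of the 17 member probes over Non-T under 7 ways of processing the same 2 arrays, siRNA 1 left and siRNA 2 right, with black diamonds for the values given in the text; dashed lines mark 2-fold. The dim probes of E2F8, E2F4, RBL1, RBL2 and RB1 spread widely. With the scanner software's processed signals, E2F8 reached -1.74 and the dim RB1 probe 0.70 with siRNA 1. With siRNA 2 the second E2F4 probe reached -1.17, RBL1 -1.09 and the second RBL2 probe -0.90.

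With the software's processed signals, 1 member probe was at least 2-fold lower with siRNA 1 and 2 with siRNA 2, against 1.04% and 1.79% of all probes. E2F4, E2F8, the tested RBL1 probe, the brighter E2F2 probe and the dimmer RBL2 probe were below 0 with both siRNAs under every processing tried. E2F5 and the E2F6 probes other than A_32_P12610 were likewise always above 0. The signs of E2F1, E2F3 and the brighter RB1 probe each depended on the centring for 1 siRNA.

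The partners, kinases and targets of these proteins were described by lists, with each gene given by its brightest probe. Of 97 list genes, 93 were measured, and none had an adjusted p under 0.05 (lowest 0.103), against 0.0117% of all probes. Both arrays' medians over all genes were 0.024. TFDP3, LIN54 and CCND2 did not pass the background filter, and KDM5A was matched to no probe.

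Of the dimer partners, which E2F1 to E2F6 need for binding DNA, TFDP2 stood at -0.33 and -0.26 and TFDP1 at -0.12 and 0.02. E2F7, the atypical relative of E2F8, stood at 0.01 and -0.37. Thus no dimer partner was past 1.5-fold.

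The kinases and cyclins that phosphorylate RB proteins had medians of -0.07 and -0.17 over 8 genes, and the siRNA 1 median was 0.03 with median centring. CCNA2, the S-phase cyclin, stood at -0.59 and -0.81. CDK4 and CDK6, the cyclin D kinases, each had a low ratio with 1 siRNA, CDK4 at -0.66 and -0.05 and CDK6 at -0.15 and -0.84. The cyclins CCND1 (0.39 and -0.50) and CCNE1 (0.62 and -0.17) lay on opposite sides of 0 with the siRNAs.

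The CDK inhibitors, which keep pocket proteins bound to E2Fs, had medians of 0.37 and 0.42 over 7 genes. CDKN1B (p27) stood at 0.71 and 1.21, at least 2-fold higher with siRNA 2, and CDKN1A (p21) at 0.37 and 0.75. CDKN2D (p19) went the other way, at -0.48 and -0.71. At unadjusted p under 0.05, 4 of the 7 were higher and 1 was lower, against 10.7% and 10.5% of all probes.

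The chromatin factors that RB proteins recruit had medians of 0.18 and -0.03 over 9 genes, the latter 0.20 with median centring. The histone-binding proteins RBBP4 (0.38 and 0.37) and RBBP7 (-0.24 and -0.62) had opposite signs, and ARID4B stood at 0.25 and 0.66. In the DREAM complex, RBL1 or RBL2 and E2F4 silence cell-cycle genes. The MuvB and DREAM list, which also holds the activators FOXM1 and MYBL2, had medians of 0.10 and 0.08 over 7 genes. In it FOXM1 (-1.07 and -1.24) had ratios past 2-fold with both siRNAs, and MYBL2 (-0.92 and -1.31) with siRNA 2, both of them activators of cell-cycle genes. No gene of this list was past 2-fold with siRNA 1 with median spot signals, with median centring or in the authors' table.

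The Polycomb complex of E2F6 had medians of 0.20 and 0.07 over 10 genes, with CBX3 at -0.43 and -0.54, WDR5 at -0.37 and -0.44 and RING1 at 0.17 and 0.52. The list for E2F degradation had medians of -0.23 and -0.28 over 6 genes. CDC20, which directs mitotic degradation, stood at -0.93 and -1.21, SKP2, the ubiquitin ligase subunit that binds E2F1 and p27, at -0.11 and -0.70, and SKP1 at -0.25 and -0.31.

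The G1/S target genes of E2F had medians of -0.37 with siRNA 1 and -0.64 with siRNA 2 over 40 genes. Of these, 35 were below 0 with siRNA 1 and 40 with siRNA 2, against 45.9% and 46.4% of all genes. At least 2-fold lower were 2 with siRNA 1 and 8 with siRNA 2, against 0.609% and 1.07% of all genes, and at least 1.5-fold lower were 11 and 21, against 3.02% and 4.22%. At unadjusted p under 0.05, 28 were lower and none higher, against 10.5% and 10.7% of all probes. TK1 (thymidine kinase, -1.09 and -1.56) and RRM2 (ribonucleotide reductase, -1.14 and -1.25) were past 2-fold with both siRNAs, and the licensing factor CDT1 stood at -0.97 and -1.34. With median centring the list's medians were -0.20 and -0.49, 30 and 35 genes were below 0, and 0 and 4 were 2-fold lower, so TK1 and RRM2 were not past 2-fold with siRNA 1. With the authors' log2 ratios, 1 gene of the list was 2-fold lower with siRNA 1 and 7 with siRNA 2. The median over the 10 member genes was -0.22 and -0.24 after loess, and -0.03 and -0.06 with median centring.

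The apoptosis-linked targets of E2F1 had medians of 0.22 and 0.24 over 8 genes. BCL2L11 (BIM) stood at 0.56 and 0.95 and CASP8 at 0.31 and 0.29.

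**Figure D4:**
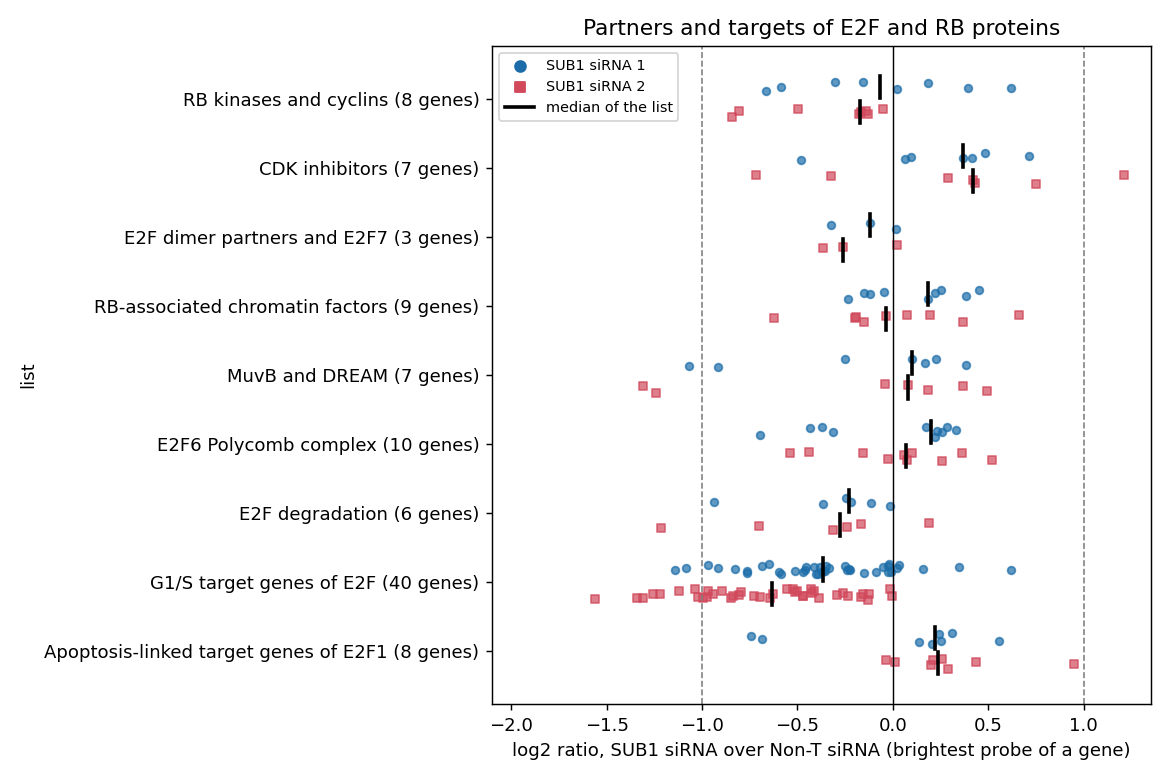
Log2 ratio (SUB1 siRNA over Non-T) of the measured genes of 9 lists, each by its brightest probe, with siRNA 1 as circles and siRNA 2 as squares and the list's median as a black bar; each point is 1 array, points are jittered vertically, and dashed lines mark 2-fold. The G1/S targets have the lowest medians (-0.37 and -0.64) and the CDK inhibitors the highest (0.37 and 0.42).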

How the data were processed

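The authors hybridized 2 dual-colour Agilent whole-genome arrays and quantified them with Feature Extraction 9.5.1.1. They deposited the Cy3 and Cy5 intensity of every spot with its local background, and a table of log2 ratios per probe made by loess (R package agilp), used here as an alternative. Here, mean intensity was corrected by normexp (offset 50) and each array was loess normalized (span 0.3). Control spots and outlier-flagged spots were left out, and repeated spots were averaged per probe. Probes were used if a share of at least 0.5 of the spots exceeded background clearly in Cy3, Cy5 or both on each array. limma 3.58.1 in R 4.3.3 tested the mean of both arrays against 0 (Benjamini-Hochberg over 25673 probes), and the code was tested on simulated data. Array signals carry no read depth: the number of arrays limits the precision. Probe coordinates are those of the array header (hg18). Promoters come from RefSeq (GRCh38.p14). Gene lists used current symbols, and 13128 of 19219 genes matched the RefSeq table. All member probes, the 3 largest changes of each list and genes 2-fold changed with both siRNAs were named, with lists of up to 10 genes open to naming gene by gene; some genes the rules name are not reported here. Members and lists were chosen with earlier results of these data known. Alternatives were other background corrections and centrings, filters, fold cutoffs, moderation settings, gene summaries and leaving out each array.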

Additional observations from a re-analysis of the deposited data

Results flagged for a closer look

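For 5 member probes the arrays lay on opposite sides of 0, and for 2 of them each ratio was also beyond the median SD between spots (0.078 with siRNA 1 and 0.074 with siRNA 2). These differences were not tested because each siRNA had 1 array. The E2F3 probe (A_23_P385034) stood at -0.16 with siRNA 1 and 0.25 with siRNA 2, a difference of 0.40 (siRNA 2 minus siRNA 1) at a technical SD of 0.066 on both arrays for spots of its signal. The RB1 probe A_24_P102636 stood at 0.17 and -0.12, a difference of -0.29, at a technical SD of 0.1 and 0.099 and with the Non-T signal not well above background on either array, while the brighter RB1 probe was below 0 with both siRNAs. The other three, the dimmer E2F2 probe (0.011 and -0.028), the dimmest E2F6 probe (-0.032 and 0.25) and the brighter RBL2 probe (0.068 and -0.13), had at least 1 ratio within that SD.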

How the results depend on the processing

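No member probe had an adjusted p under 0.05 in any alternative. Of 206 comparisons of a member probe's mean ratio with an alternative that used both arrays, 198 kept the sign. Many of the 206 could not turn it, because changing the filter or the moderation, or taking the brightest probe, left a probe's mean ratio as it was. The RB1 probe A_24_P102636 was -0.031 without background correction, -0.041 with median spot signals, -0.020 with median centring and -0.080 in the authors' table. The E2F2 probe A_23_P125990 was 0.019 with median spot signals and 0.079 with median centring, and the RBL2 probe A_24_P416159 0.065 with median centring and 0.069 with processed signals. On single arrays the ratio of A_23_P125990 ranged from -0.028 to 0.011, that of E2F3 from -0.16 to 0.25, that of the E2F6 probe A_32_P12610 from -0.032 to 0.25, that of RB1 A_24_P102636 from -0.12 to 0.17 and that of A_24_P416159 from -0.13 to 0.068.

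Member probes at least 2-fold changed were 1 with siRNA 1 at a normexp offset of 10, and 1 and 2 with siRNA 1 and 2 with processed signals. At 1.5-fold they were 1 and 1. Pathway genes at least 2-fold lower were 3 with siRNA 1 and 10 with siRNA 2, 0 and 6 with median centring, 1 with siRNA 1 in the authors' table, and 17 and 27 at 1.5-fold. The median over member probes with siRNA 1 was -0.09 both without background correction (-0.0945) and without the filter (-0.0938), 0.078 with median centring and -0.10 with processed signals. With siRNA 2 it was -0.21 at offset 10, -0.045 with median centring, -0.074 with processed signals and -0.18 in the authors' table. Without the filter, 452 of 40999 probes had an adjusted p under 0.05 against 3 in the filtered set, and the processed signals and the authors' table gave 0, with 5902 and 5548 probes at unadjusted p under 0.05. The causes were not tested.

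The test had 1 residual degree of freedom before moderation. Dim probes (E2F8, RBL1, the second E2F4 and RBL2 probes) lie near background, and their ratios moved with the background correction. No paired analysis was possible because pairing by replicate number needs at least 2 shared numbers and the siRNAs share 1; each ratio already sets a knockdown against the Non-T control of its own array.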
